A study of Mus musculus with 60 samples.

Results

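The transcripts described here are those of 10 genes that act on stored fat: the lipases Pnpla2, Lipe and Mgll, the lipase regulators Abhd5 and G0s2, the perilipins Plin1, Plin2, Plin4 and Plin5, and the droplet protein Cidec. They were taken as a list of gene names, with earlier results of these data known, and all 10 were found among the 55011 genes of the count table. Every member had at least 144 counts in each of the 52 whole-fat libraries and passed the filter on low counts in all 15 comparisons.

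Fat is kept in adipocytes as triglyceride inside lipid droplets. Lipolysis frees it in order: Pnpla2 (ATGL) takes the first fatty acid from triglyceride, Lipe (hormone-sensitive lipase) the next from diglyceride, and Mgll (monoacylglycerol lipase) the last. Abhd5 (CGI-58) activates Pnpla2, G0s2 inhibits it, and Plin1 holds Abhd5 at the droplet surface until adrenergic signalling through cAMP and protein kinase A releases it. In brown fat the freed fatty acids both fuel and switch on heat production by Ucp1.

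The series measured RNA by sequencing in whole interscapular brown adipose tissue (BAT, 38 libraries) and subcutaneous adipose tissue (SAT, 14 libraries) of 8-week-old male mice, and in regulatory T (Treg) cells sorted from other mice (8 libraries). It asked how fat differs with and without Treg cells. In the B6.Foxp3.DTR strain, DTR+ mice carry the diphtheria toxin receptor under the control of Foxp3, the transcription factor that defines Treg cells, so that diphtheria toxin (DT) kills those cells, while DTR- mice lack the receptor. All DTR+ groups, and all DTR- groups except the cold group, were given the toxin.

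There were 4 DTR- and 4 DTR+ libraries from each depot in a set named D4, and 3 and 3 from each depot in a set named D3, whose titles add PBS. The labels do not say what D3 and D4 stand for. A further BAT set held 3 DTR- libraries with PBS, 3 DTR- with CL and 3 DTR+ with CL. CL was taken to be the agonist of the beta-3 adrenergic receptor known by that prefix, since the labels write only CL. C57BL/6J wild-type (WT) mice gave 3 BAT libraries with PC61, an antibody to CD25, and 3 with an isotype control antibody. DTR+ mice given toxin gave 3 BAT libraries with an antibody to interferon gamma (anti-IFNg) and 3 with its isotype control. The cold group held 3 BAT libraries from mice at 4 degrees that received PBS, with no toxin on the labels; their genotype label is DTR- but their titles say WT. The labels do not say whether libraries of a group came from separate mice, so p-values measure the spread between these libraries, which may be technical.

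Library totals ran from 3007241 to 9673342 counts. Brown adipocyte markers (Ucp1, Cpt1b and Elovl3) separated the depots, and the adipocyte marker Adipoq was present throughout, at 918 to 2884 CPM (counts per 1000000 of the library) in BAT and 4151 to 6593 in SAT. Foxp3 had 0 to 7 counts in a BAT library and 0 to 29 in a SAT library, too few to check the loss of Treg cells. In the D4 SAT set, DTR- replicate 3 stood apart with T and NK cell markers summing to 157 CPM, and DTR+ replicate 3 with muscle markers at 2305 CPM. Levels are CPM scaled by TMM over the 52 libraries, which are for comparing a gene between samples. The TMM factors themselves differed between some groups. In D3 BAT they were 0.78 to 0.88 in DTR- and 0.96 to 0.98 in DTR+ mice. In WT mice they were 0.87 to 0.88 with isotype and 0.94 to 1.01 with PC61. In whole tissue, fewer cells of a type and less RNA per cell cannot be told apart.

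**Figure D1:**
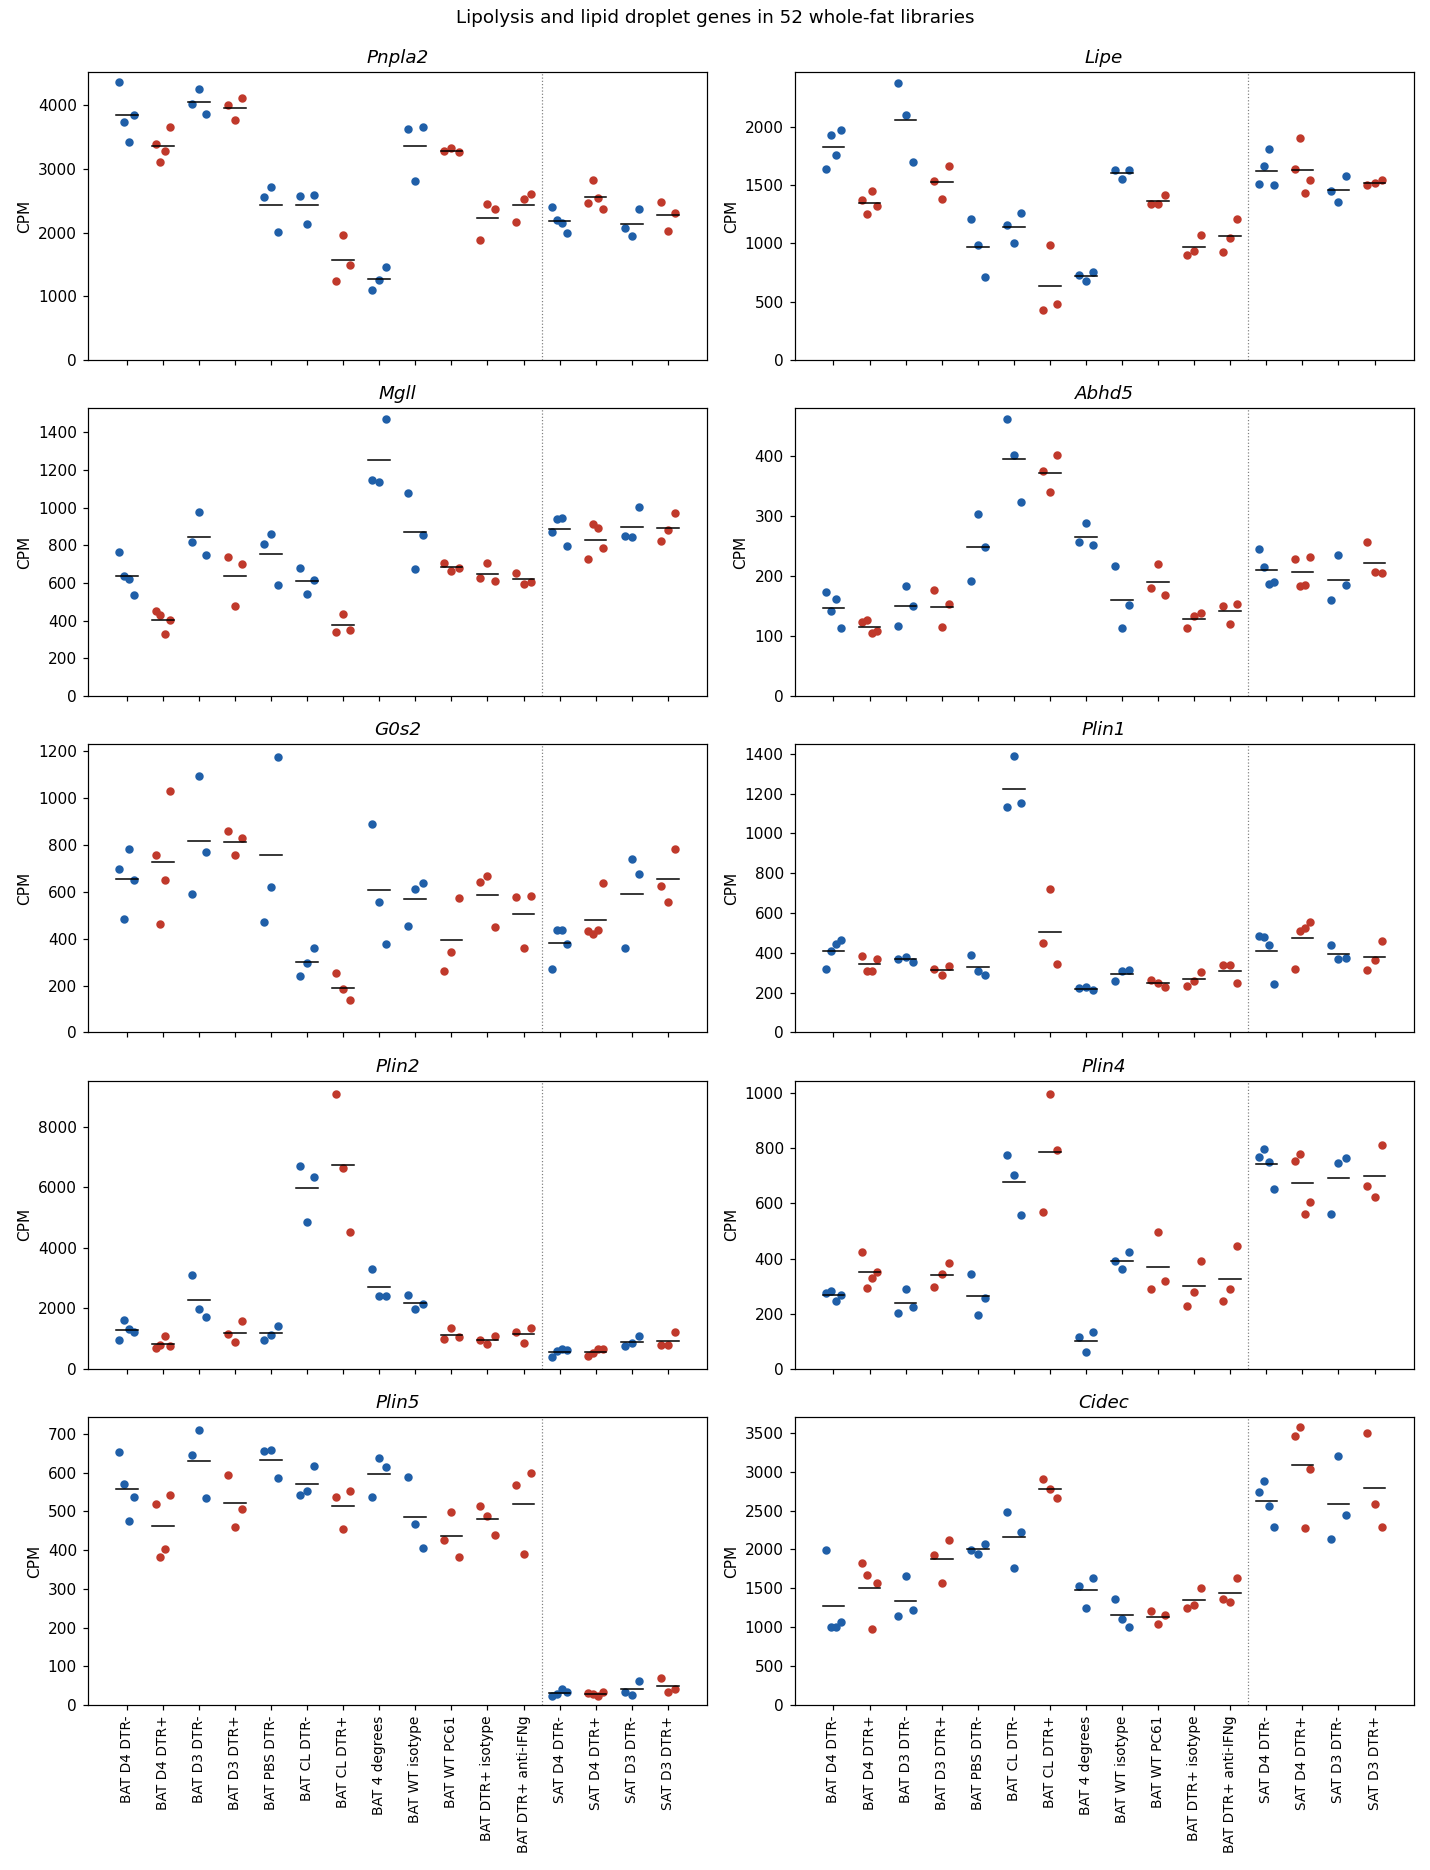
Levels of the 10 genes in CPM (vertical axes, from 0) in 52 whole-fat libraries, grouped along the horizontal axis. Points are libraries (blue, DTR-, WT isotype and cold; red, DTR+ and PC61), black lines are group means, and a dotted line parts BAT from SAT. Plin2 stood highest in the groups given CL, at 4838 to 6708 CPM in DTR- mice, and Plin5 reached at most 69.9 CPM in a SAT library.

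Per kilobase of exon, the scale on which different genes can be compared, the lipase Pnpla2 had the highest mean level of the 10 in D4 BAT of DTR- mice, at 1274 CPM per kb (range 1135 to 1445, n = 4). Its inhibitor G0s2 followed at 750.5 and Cidec, which helps droplets fuse and grow, at 684, and the libraries of these neighbours overlapped. Plin2 (361 CPM per kb), Lipe (310.3) and Plin5 (268) came next, each overlapping its neighbour. Mgll (126), Plin1 (88.3), Plin4 (46.3) and the co-activator Abhd5 (24.8) closed the order, with no overlap between neighbours.

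The order differed in SAT. Cidec led there at 1411 CPM per kb (range 1236 to 1553), ahead of Pnpla2 at 725 and G0s2 at 437. Lipe (276), Mgll (175), Plin2 (159.7), Plin4 (128), Plin1 (88.6) and Abhd5 (35.2) followed in CPM per kb, and Plin5, the perilipin of tissues that burn fat, was last at 15.2. Among these neighbours, Mgll overlapped Plin2 and Plin2 overlapped Plin4.

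Brown and subcutaneous fat of DTR- mice were first compared member by member. Brown fat held more Pnpla2, Plin2 and Plin5 transcript, and subcutaneous fat held more Plin4, a perilipin of white adipocytes, and more Cidec. In the D4 set, 8 of 10 members passed an adjusted p of 0.05 in edgeR's quasi-likelihood test, 4 higher and 4 lower in BAT, beside 50.9% of the 12310 genes tested (25.9% higher and 25% lower). In the D3 set, 6 passed, 4 higher and 2 lower, beside 45.9% of the 12387 genes tested (23% higher and 22.9% lower). Since so many genes differed between the depots, these counts are read only against those shares. The median log2 difference of the members was 0.11 in D4 and 0.22 in D3, against 0.01 and -0.02 for all genes tested. TMM factors ran from 0.82 to 0.89 in BAT and from 1.12 to 1.21 in SAT of the D4 DTR- mice. In D3 DTR- mice they ran from 0.78 to 0.88 and from 1.08 to 1.16. Such factors raise BAT levels relative to SAT levels, so the sizes of the depot differences below depend on that scaling. The differences without scaling were not tested.

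Plin5 differed most. Its 4 D4 DTR- libraries read 654, 570.4, 474 and 536 CPM in BAT and 22.6, 29.4, 40.4 and 34.8 CPM in SAT, so every BAT library lay far above every SAT library. The log2 difference was 4.15 ± 0.18 (SE, adjusted p = 1.1e-09) in D4 and 3.98 ± 0.32 (SE, adjusted p = 2.1e-05) in D3, or 17.8-fold and 15.8-fold.

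Pnpla2 was also higher in BAT, at 4365, 3748, 3428 and 3846 CPM in the D4 set against 2403, 2202, 2157 and 1998 CPM in SAT, a log2 difference of 0.84 ± 0.11 (SE, adjusted p = 1.4e-05). For Plin2, the droplet coat found in most cell types, the difference was 1.20 ± 0.18 (SE, adjusted p = 0.00016). In D3 the same genes differed by 0.96 and 1.37 on the log2 scale. No library of either gene overlapped between depots in either set.

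Plin4 ran the other way, at 274, 281, 246 and 268 CPM in BAT and 768, 798, 749 and 653 CPM in SAT, with log2 differences of -1.45 ± 0.10 (SE, adjusted p = 1.7e-08) in D4 and -1.51 ± 0.16 (SE, adjusted p = 6e-06) in D3. Cidec read 1989.9, 1006, 1008 and 1072 CPM in BAT and 2736, 2882, 2562 and 2294 CPM in SAT. Its log2 difference was -1.02 ± 0.21 (SE, adjusted p = 0.0014) in D4, and -1.36 without D4 BAT DTR- replicate 1, the library at 1989.9 CPM; in D3 it was -0.92.

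The other members passed in at most a single set, with no test of the difference between sets. In D4, Mgll (-0.45, adjusted p = 0.0037) and Abhd5 (-0.48, adjusted p = 0.0065) were lower and G0s2 (0.81, adjusted p = 0.0019) was higher in BAT. In D3 Lipe was higher in BAT (0.52, adjusted p = 0.01), a difference that also depends on the TMM scaling. Plin1, the main coat of droplets in fat cells, passed in neither set, at 0.02 ± 0.20 and -0.07 ± 0.12 on the log2 scale.

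**Figure D2:**
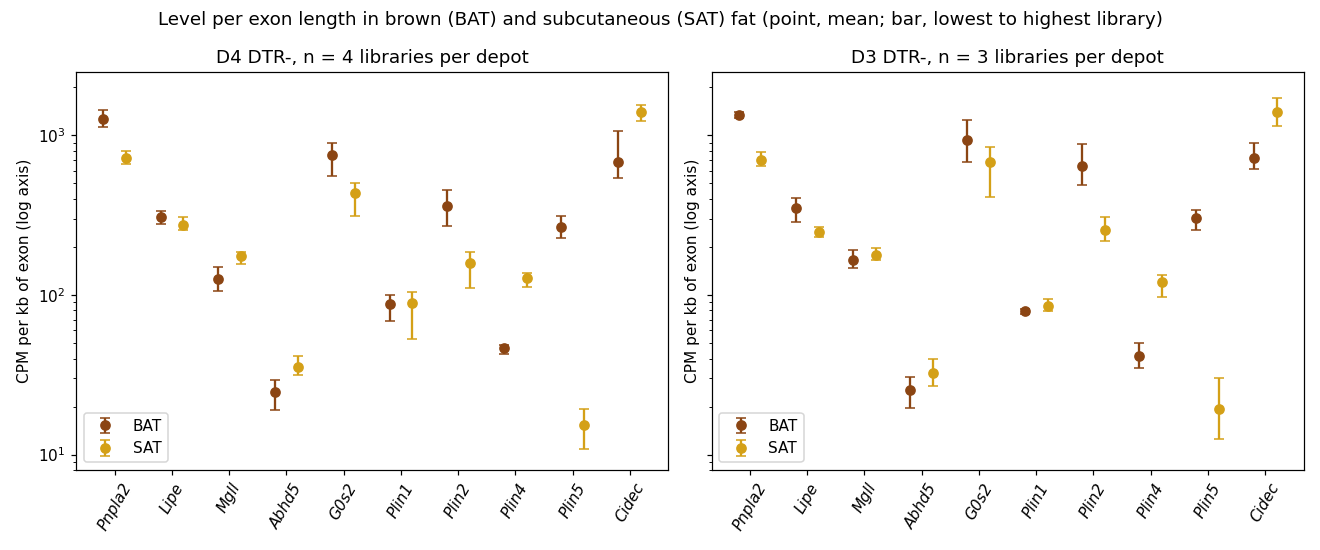
Mean level in CPM per kb of exon (log vertical axis) of each gene in BAT and SAT of DTR- mice, in the D4 set (left, 4 libraries per depot) and the D3 set (right, 3 per depot); bars run from the lowest to the highest library. Plin5 has the widest gap, from 268 in BAT to 15.2 in SAT in D4.

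Genes of the same pathway also differed by depot in D4. Of other droplet proteins, 6 of 13 tested genes were higher and 2 lower in BAT than in SAT; Cidea, the droplet-fusing relative of Cidec in brown fat, was 4.81 higher and Plin3 1.37 higher on the log2 scale. Among other hydrolases and genes of glycerol and fatty acid handling, 8 of 11 tested genes were higher and 1 lower, with glycerol kinase (Gk) at 3.79 and the glycerol channel Aqp7 at 1.15. Among genes upstream of lipolysis, 8 of 18 tested genes were higher and 5 lower, including Prkar2b, a regulatory subunit of protein kinase A, at 1.57 and the adenylate cyclase Adcy5 at -3.80. Macrophage markers summed to 169 to 420.3 CPM in BAT and 1027 to 2786 CPM in SAT, and 9 of the 10 passed as lower. Fibroblast markers (751 to 1017 against 3282 to 8693 CPM) and adipocyte markers (5466 to 8104 against 29114 to 41617 CPM) also summed lower in BAT. So did T and NK cell markers (4.13 to 6.69 against 15.0 to 157 CPM), while endothelial markers summed higher (233 to 266 against 115 to 172 CPM). The part of these lists in the member differences was not tested.

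Beta-3 agonism is the classical trigger of lipolysis in fat, and the response to CL was read in DTR- BAT. Plin1, Plin2 and Plin4, which coat droplets, and Abhd5, which activates Pnpla2, all rose, and G0s2, which inhibits Pnpla2, fell. The 3 lipases themselves did not pass the test. In all, 5 of 10 members passed, 4 higher and 1 lower, beside 28.1% of the 12048 genes tested (16.3% higher and 11.8% lower). The median of the 10 was 0.26 on the log2 scale, against -0.03 for all genes tested.

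The 250 bases before the RefSeq start site are shown for these 5 genes, which passed the test, and for the first of the 2 start sites of Plin5, the gene with the widest depot difference. They come from RefSeq on build GRCm38.p6 and are written 5′ to 3′ along each gene's strand. Capitals mark the 3 motifs searched on both strands. The run AGGTCA, read as TGACCT on the other strand, is the core hexamer bound by nuclear receptors such as the PPARs. TGACG, read as CGTCA on the other strand, is the core of the cAMP response element, and CACGTG is an E-box. None of these overlaps another. The windows lie at chr7:79732777-79733026 on the minus strand for Plin1, chr4:86670060-86670309 on the minus strand for Plin2, chr17:56109783-56110032 on the minus strand for Plin4, chr9:122351366-122351615 on the plus strand for Abhd5, chr1:193273189-193273438 on the minus strand for G0s2 and chr17:56117549-56117798 on the minus strand for Plin5.
Plin1: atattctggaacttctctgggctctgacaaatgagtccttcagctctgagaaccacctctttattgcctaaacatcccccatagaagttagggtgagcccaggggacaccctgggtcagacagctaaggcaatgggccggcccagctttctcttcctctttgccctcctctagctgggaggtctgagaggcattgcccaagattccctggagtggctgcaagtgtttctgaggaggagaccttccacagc
Plin2: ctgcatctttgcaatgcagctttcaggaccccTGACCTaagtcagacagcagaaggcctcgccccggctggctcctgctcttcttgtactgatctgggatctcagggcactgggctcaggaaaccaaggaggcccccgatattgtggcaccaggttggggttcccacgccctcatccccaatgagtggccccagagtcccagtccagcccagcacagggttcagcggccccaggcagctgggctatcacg
Plin4: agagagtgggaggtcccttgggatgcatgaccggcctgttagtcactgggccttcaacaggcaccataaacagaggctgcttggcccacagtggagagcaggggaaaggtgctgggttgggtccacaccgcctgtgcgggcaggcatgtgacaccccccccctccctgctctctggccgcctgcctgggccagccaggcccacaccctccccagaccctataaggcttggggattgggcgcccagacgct
Abhd5: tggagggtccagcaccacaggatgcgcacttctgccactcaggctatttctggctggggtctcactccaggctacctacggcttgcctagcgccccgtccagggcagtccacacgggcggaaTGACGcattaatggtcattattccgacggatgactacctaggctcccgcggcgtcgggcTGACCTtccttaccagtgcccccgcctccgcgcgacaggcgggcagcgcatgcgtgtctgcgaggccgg
G0s2: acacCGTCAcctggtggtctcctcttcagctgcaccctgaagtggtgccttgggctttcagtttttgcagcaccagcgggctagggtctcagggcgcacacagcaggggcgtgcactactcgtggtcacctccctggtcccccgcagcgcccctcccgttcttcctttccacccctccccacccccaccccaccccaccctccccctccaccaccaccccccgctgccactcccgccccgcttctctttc
Plin5: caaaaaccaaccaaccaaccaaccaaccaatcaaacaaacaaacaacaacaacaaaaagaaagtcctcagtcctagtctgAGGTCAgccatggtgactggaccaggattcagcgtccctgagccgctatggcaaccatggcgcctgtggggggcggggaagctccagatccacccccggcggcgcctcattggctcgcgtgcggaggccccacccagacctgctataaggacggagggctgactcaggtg

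Abhd5 held TGACG starting 128 bases and TGACCT 69 bases before the start site, Plin2 held TGACCT at 218 bases, G0s2 CGTCA at 246 bases and Plin5 AGGTCA at 170 bases. The windows of Plin1 and Plin4 held none of the 3 motifs. Of the members not printed, Lipe and Mgll each held CACGTG in the window of 1 of 2 start sites, at 155 and 44 bases, and Pnpla2 and Cidec held none. Over all 32851 windows of the same length in the table, 14% held AGGTCA, 17.8% TGACG and 6.02% CACGTG in either direction. A match is a run of letters and not a shown binding site.

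Plin2 rose most. It read 958, 1124 and 1429 CPM in the PBS libraries and 6708, 4838 and 6358 CPM in the CL libraries, with a wide gap between the groups. The log2 fold change was 2.44 ± 0.24 (SE, adjusted p = 1.1e-05), a 5.43-fold rise.

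Plin1 read 388, 307 and 289 CPM with PBS and 1134, 1389 and 1153 CPM with CL, a log2 fold change of 1.99 ± 0.24 (SE, adjusted p = 5.4e-05), or 3.98-fold. Plin4 went from 344, 195 and 257 CPM to 776, 702 and 559.7 CPM, a change of 1.45 ± 0.24 (SE, adjusted p = 0.00066) on the log2 scale. Neither gene had a CL library within the PBS range. Plin5 did not pass, with 657, 659 and 585 CPM with PBS and 543, 553 and 618 CPM with CL, overlapping groups and a log2 fold change of -0.06 ± 0.15 (SE, adjusted p = 0.8).

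Of the 2 lipase regulators, Abhd5 read 191, 304 and 249 CPM with PBS and 463, 402 and 323 CPM with CL, a log2 fold change of 0.77 ± 0.20 (SE, adjusted p = 0.011). G0s2 fell from 471, 620.4 and 1177 CPM to 239.7, 295 and 361 CPM, a log2 fold change of -1.25 ± 0.31 (SE, adjusted p = 0.011). For both genes the groups did not overlap. The size of the G0s2 fall leaned on PBS replicate 3, the library at 1177 CPM, without which it was -0.77 (adjusted p = 0.039). Without CL DTR- replicate 1 it was -1.10 with an adjusted p of 0.0501, which missed the threshold.

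The lipases gave small differences. Pnpla2 read 2562, 2711 and 2016 CPM with PBS and 2578, 2134 and 2587 CPM with CL, at 0.09 ± 0.19 (SE, adjusted p = 0.75) on the log2 scale. For Lipe the log2 fold change was 0.33 ± 0.29 (SE, adjusted p = 0.42) and for Mgll -0.21 ± 0.18 (SE, adjusted p = 0.42). Cidec was at 0.20 ± 0.15 (SE, adjusted p = 0.36). All 4 had overlapping groups.

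Marker genes of other cell types moved in the same comparison. T and NK cell markers summed to 14, 5.35 and 131 CPM in PBS replicates 1 to 3 and 2.91 to 4.08 CPM with CL, where up to 4 of the 6 were at 0, and 4 of 6 passed as lower. Of the 10 macrophage markers 4 passed as lower, with sums of 312 to 793 CPM with PBS and 196 to 211 CPM with CL. All 3 endothelial markers passed as higher, and brown adipocyte markers summed to 8022 to 11312 CPM with PBS and 14842 to 19408 CPM with CL, with 1 of 3 higher. The adipocyte markers (Adipoq, Pparg, Lep and Cfd) summed to 8425 to 12582 CPM with PBS and 4651 to 6569.7 CPM with CL, and 2 of the 4 passed as lower. The part of these in the member changes was not tested. Without PBS replicate 3, the library with the highest T and NK cell sum, Plin1 (1.91), Plin2 (2.62), Plin4 (1.42) and Abhd5 (0.77) still passed on the log2 scale.

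Other pathway genes moved in both directions with CL. Among genes upstream of lipolysis, 6 of 18 tested genes rose and 4 fell: Adrb3, the beta-3 receptor itself, fell by 1.97 on the log2 scale, the lactate receptor Hcar1 fell by 3.55, and the adenylate cyclase Adcy3 rose by 1.83. Among other droplet proteins, 2 of 13 tested genes rose and 3 fell. Hilpda, a further inhibitor of Pnpla2, rose by 2.89 from a low level, while Plin3 fell by 1.55, Ldah by 1.22 and Bscl2 (seipin), which shapes new droplets, by 0.85. Among hydrolases and fatty acid handling, 4 of 11 tested genes rose and 4 fell: Gk rose by 2.05, the acyl-CoA synthetase Acsl1 by 1.13 and lysosomal acid lipase (Lipa) by 0.94, and Dgat2, which makes triglyceride, fell by 1.14.

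Within CL, DTR+ and DTR- mice were compared to ask what Treg cell loss does during stimulation. Plin1 and Mgll were lower in DTR+ BAT, and Plin2 and Plin4 were not told apart. So 2 of 10 members passed, both lower, beside 7.72% of the 12048 genes tested (4.51% higher and 3.21% lower). The members' median was -0.40 on the log2 scale against 0.01 for all genes. This comparison shares its DTR- CL libraries with the one above, and no DTR+ group with PBS belongs to this set, so the CL response of DTR+ mice itself was not measured.

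Plin1 read 1134, 1389 and 1153 CPM in DTR- and 452, 721 and 345 CPM in DTR+ mice, with no overlap and a log2 fold change of -1.28 ± 0.24 (SE, adjusted p = 0.0066). Its DTR+ levels lay from 345 to 721 CPM, beside 289 to 388 CPM in the PBS group of DTR- mice. Plin2 instead read 6708, 4838 and 6358 CPM and 9092, 6654 and 4520.2 CPM, overlapping, with a log2 fold change of 0.17 ± 0.23 (SE, adjusted p = 0.71). Plin4 likewise overlapped, at 0.21 ± 0.24 (SE, adjusted p = 0.64).

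No DTR+ library of Mgll, Pnpla2 or Lipe lay within the DTR- range, but of these only Mgll passed in edgeR. How many of all genes tested lacked overlap was not counted. Mgll read 679.8, 539.5 and 615 CPM in DTR- and 339.7, 438 and 349 CPM in DTR+ mice, at -0.71 ± 0.18 (SE, adjusted p = 0.031) on the log2 scale. This call was lost without CL DTR- replicate 1 (adjusted p = 0.096) or 3 (0.069) and without CL DTR+ replicate 1 (0.093) or 3 (0.12).

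Pnpla2 read 2578, 2134 and 2587 CPM in DTR- and 1238, 1966 and 1486 CPM in DTR+ mice, a log2 difference of -0.65 ± 0.19 (SE, adjusted p = 0.052) that missed the threshold. Lipe read 1158, 1003 and 1262 CPM and 429, 988 and 479 CPM, at -0.86 ± 0.29 (SE, adjusted p = 0.088). Replicate 2 stood highest of the DTR+ libraries for both genes. Without it, Pnpla2 was at -0.86 (adjusted p = 0.02) and Lipe at -1.36 (adjusted p = 0.0051). DESeq2 called both, with adjusted p of 0.014 for Pnpla2 and 0.021 for Lipe.

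The remaining members did not pass. Abhd5 was at -0.10 ± 0.20, G0s2 at -0.65 ± 0.31, Plin5 at -0.16 ± 0.15 and Cidec at 0.36 ± 0.15 on the log2 scale. Cidec was higher in every DTR+ library than in any DTR- library but had an adjusted p of 0.17. Immune markers stood well apart in this comparison: macrophage markers summed to 1127 to 1322 CPM in DTR+ and 196 to 211 CPM in DTR- mice, with 9 of 10 higher, and T and NK cell markers to 53.7 to 64.5 against 2.91 to 4.08 CPM, with 2 of 6 called higher. Adipocyte markers summed to 8535 to 11888 CPM in DTR+ and 4651 to 6569.7 CPM in DTR- mice, with 1 of 4 higher, and endothelial markers to 265 to 353 and 359 to 406 CPM, with 1 of 3 lower. Of the adipocyte markers, Adipoq itself overlapped, at 1741 to 2273 CPM in DTR+ and 1371 to 1763 CPM in DTR- mice. The part of these lists in the member differences was not tested. Of the upstream genes, 2 of 18 tested genes rose and 5 fell, with Adrb3 at -1.12 and Insr, the insulin receptor, at -1.14 on the log2 scale.

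**Figure D3:**
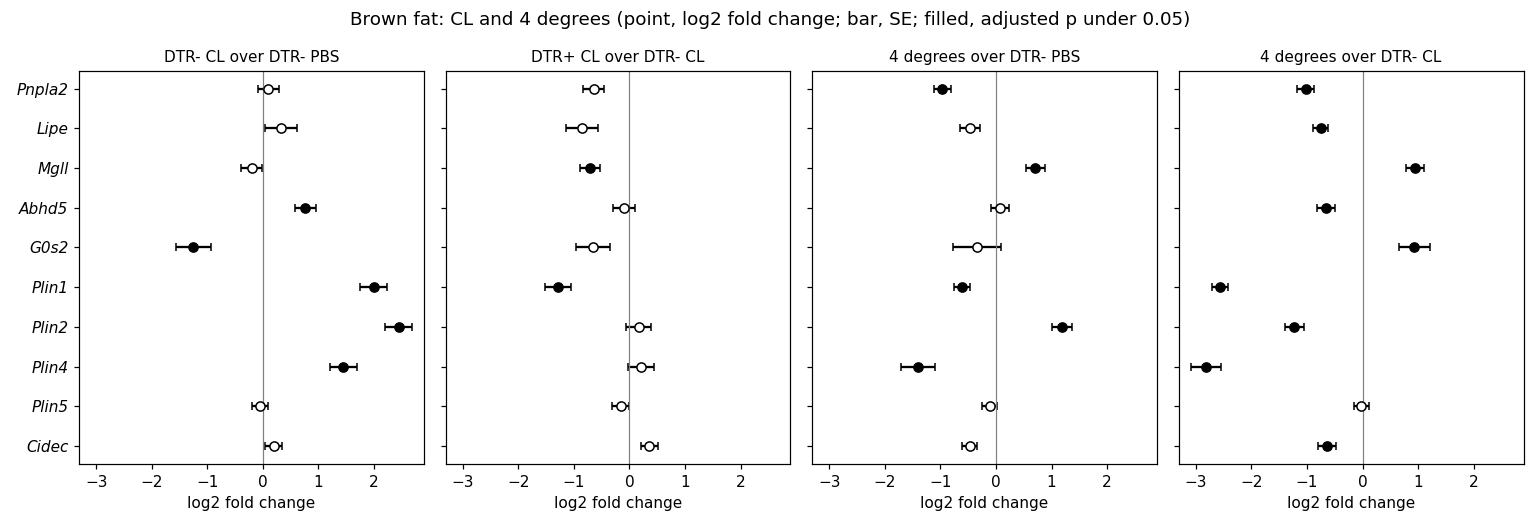
Log2 fold changes (horizontal axes) of the 10 genes in BAT for DTR- CL over DTR- PBS, DTR+ CL over DTR- CL, 4 degrees over DTR- PBS and 4 degrees over DTR- CL; points are estimates, bars are SE and filled points passed an adjusted p of 0.05. Plin2 rose with CL (2.44) and at 4 degrees (1.18), while Plin1 rose with CL (1.99) and was lower at 4 degrees (-0.61), both against the same PBS libraries.

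Cold is the natural stimulus that beta-3 agonists imitate, and the group at 4 degrees was set against the PBS libraries of DTR- mice. Plin2 and Mgll were higher at 4 degrees, and Pnpla2, Plin1 and Plin4 were lower. Thus 5 of 10 members passed, 2 higher and 3 lower, beside 8.66% of the 12329 genes tested (4.86% higher and 3.8% lower). The median of the members was -0.40 on the log2 scale, against -0.001 for all genes. The PBS mice had the toxin and the cold mice did not, so temperature, toxin and any difference between experiments cannot be told apart.

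Pnpla2 read 2562, 2711 and 2016 CPM with PBS and 1099.9, 1259 and 1459 CPM at 4 degrees, its lowest group mean in BAT. The log2 fold change was -0.96 ± 0.16 (SE, adjusted p = 0.0046). Mgll went up, from 806, 858 and 591 CPM to 1146, 1134 and 1470.4 CPM, by 0.70 ± 0.17 (SE, adjusted p = 0.028) on the log2 scale, and the cold group held its highest levels in BAT. Lipe read 1209, 988 and 711 CPM and 726, 676 and 757 CPM, overlapping, at -0.46 ± 0.18 (SE, adjusted p = 0.15). The first and last enzymes of lipolysis therefore differed in opposite directions.

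Among the perilipins, Plin2 rose from 958, 1124 and 1429 CPM to 3315, 2419.8 and 2398 CPM, by 1.18 ± 0.18 (SE, adjusted p = 0.003) on the log2 scale. Plin4 read 344, 195 and 257 CPM with PBS and 114, 59.6 and 133 CPM at 4 degrees, a log2 fold change of -1.40 ± 0.30 (SE, adjusted p = 0.022). Plin1 read 388, 307 and 289 CPM and 222, 226 and 211 CPM, at -0.61 ± 0.15 (SE, adjusted p = 0.027). The groups of Plin2, Plin4 and Plin1 did not overlap, and how many of all genes tested lacked overlap was not counted. Plin5 read 536, 639 and 615 CPM at 4 degrees, with 2 of the 3 within the PBS range, at -0.12 ± 0.13 (SE, adjusted p = 0.65).

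Abhd5 (0.07 ± 0.17) and G0s2 (-0.34 ± 0.43) did not pass, and Cidec missed the threshold at -0.47 ± 0.13 (SE, adjusted p = 0.051) with groups that did not overlap. The calls of Mgll, Plin1 and Plin4 rested on all 6 libraries more than those of Pnpla2 and Plin2. Leaving out single libraries took the adjusted p of Mgll to at most 0.13, of Plin1 to 0.11 and of Plin4 to 0.072. Mgll was lost without PBS replicate 1 or any cold library, Plin1 without any library except PBS replicate 3, and Plin4 without PBS replicate 1 or 3 or cold replicate 1. Without PBS replicate 3, Lipe passed at -0.65 (adjusted p = 0.015).

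The choice of control mattered for Plin2. Against the D3 BAT DTR- libraries (3106, 1979.7 and 1713 CPM), its log2 fold change was 0.21 (adjusted p = 0.52), and against the D4 BAT DTR- libraries (955, 1604, 1300.5 and 1215 CPM) it was 1.03 (adjusted p = 0.00049). Pnpla2 was lower against both, by -1.72 and -1.66. Lipe passed as lower (-1.56 and -1.41) and Abhd5 as higher (0.77 and 0.79) against these controls and not against PBS.

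Adipocyte marker sums were lower in the cold group, at 2624 to 2931 CPM against 8425 to 12582 CPM with PBS (2 of 4 genes lower), and brown adipocyte sums were 22013 to 23906 CPM against 8022 to 11312 CPM (2 of 3 higher). Endothelial markers summed to 379 to 486 CPM against 133 to 215 CPM (2 of 3 higher) and macrophage markers to 249 to 305 CPM against 312 to 793 CPM (1 of 9 tested lower), both without overlap. Whether they bear on the member differences was not tested. Pathway genes again went both ways. Of upstream genes, 4 of 18 tested genes rose and 3 fell: Npr3, which clears natriuretic peptides, rose by 3.25 and Adcy3 by 1.44 on the log2 scale. Of other droplet proteins, 0 of 13 tested genes rose and 2 fell, with Cidea at -0.62 and Pnpla3 at -1.38. Of hydrolases and fatty acid handling genes, 1 of 11 tested genes rose and 2 fell, with Lipa at 0.89 and the carboxylesterase Ces1d at -0.57.

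The cold and CL groups were also set against each other directly. All members but Plin5 passed, 2 higher and 7 lower at 4 degrees, beside 32.2% of the 12206 genes tested (14.9% higher and 17.3% lower). Plin4 was lowest relative to CL, at -2.82 ± 0.27 (SE, adjusted p = 3.4e-05) on the log2 scale, and Plin1 followed at -2.57 ± 0.15 (SE, adjusted p = 4.6e-07). Plin2 was at -1.23, Pnpla2 at -1.02, Lipe at -0.75, Cidec at -0.64 and Abhd5 at -0.66. Mgll (0.94) and G0s2 (0.93) were higher at 4 degrees. The G0s2 call ended without CL DTR- replicate 1 or 2 or cold replicate 1 or 2 (adjusted p up to 0.11), and the Cidec call without cold replicate 2 (0.052). Marker sums differed here too: in the cold, adipocyte markers summed to 2624 to 2931 CPM against 4651 to 6569.7 CPM with CL (1 of 4 higher, 3 lower), fibroblast markers to 494 to 1004 CPM against 1379 to 1401 CPM (1 of 4 higher, 3 lower), brown adipocyte markers to 22013 to 23906 CPM against 14842 to 19408 CPM (1 of 3 higher, 1 lower) and macrophage markers to 249 to 305 CPM against 196 to 211 CPM (1 of 9 tested higher). Their part was not tested. The labels give no dose or duration of either stimulus here, and the toxin differs between these groups as well.

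Without CL, the loss of Treg cells was read from DTR+ against DTR- BAT in the D4 set. The lipases Lipe and Mgll were lower in DTR+ BAT and Plin4 was higher. That made 3 of 10 members, 1 higher and 2 lower, beside 16.1% of the 11695 genes tested (8.73% higher and 7.36% lower). The members' median log2 fold change was -0.21, against 0.02 for all genes tested.

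Mgll read 764, 637, 623 and 534 CPM in DTR- and 449, 431, 329 and 403 CPM in DTR+ mice, a log2 fold change of -0.61 ± 0.11 (SE, adjusted p = 0.0017). Lipe read 1641, 1932, 1755 and 1978 CPM in DTR- and 1377, 1252, 1451 and 1324 CPM in DTR+ mice, at -0.38 ± 0.08 (SE, adjusted p = 0.0051). For both, every DTR+ library was below every DTR- library. The TMM factors ran from 0.82 to 0.89 in the DTR- and from 1.05 to 1.09 in the DTR+ libraries. The size and the lack of overlap of both differences therefore depend on that scaling. Pnpla2 overlapped, from 3428 to 4365 CPM in DTR- to 3113 to 3656 CPM in DTR+ mice, at -0.14 ± 0.08 (SE, adjusted p = 0.28).

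Plin4 read 274, 281, 246 and 268 CPM in DTR- and 423, 295, 329 and 352 CPM in DTR+ mice, without overlap, a log2 fold change of 0.44 ± 0.11 (SE, adjusted p = 0.0091). When all 16 whole-fat groups shared 1 fit, and so 1 estimate of the spread, its adjusted p was 0.26. Plin2 read 955, 1604, 1300.5 and 1215 CPM and 682, 778, 1096 and 739.6 CPM, at -0.57 ± 0.19 (SE, adjusted p = 0.073), and DESeq2 gave it an adjusted p of 0.0057. Plin1 (-0.21 ± 0.12) and Plin5 (-0.22 ± 0.12) had overlapping groups. Without DTR- replicate 1, Plin1 (-0.34) and Plin2 (-0.72) passed as lower.

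Of the others, Abhd5 was at -0.30 ± 0.12 on the log2 scale, G0s2 at 0.20 ± 0.26 and Cidec at 0.31 ± 0.30, none past the threshold. Abhd5 passed at -0.43 without DTR- replicate 4, which had its lowest DTR- level. Macrophage markers summed to 644 to 1469 CPM in DTR+ and 169 to 420.3 CPM in DTR- BAT (8 of 10 higher), T and NK cell markers to 18.4 to 44.8 and 4.13 to 6.69 CPM (3 of 3 tested higher), and brown adipocyte markers to 2538 to 2945 and 4932 to 6803 CPM (2 of 3 lower). The calls of Lipe, Mgll and Plin4 each held with any 1 of the 8 libraries left out. Muscle markers reached 5425 CPM in a DTR+ library, with no marker of that list called. The part of these in the member changes was not tested.

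Most other pathway genes did not pass. Of other droplet proteins, 0 of 13 tested genes rose and 6 fell, including Cidea (-0.40), Pnpla3 (-0.95) and Bscl2 (-0.37) on the log2 scale. Of hydrolases and fatty acid handling genes, 0 of 11 tested genes rose and 5 fell, including Aqp7 (-0.38), Abhd6 (-0.59) and Lipa (-0.38). The TMM factors of 0.82 to 0.89 in DTR- and 1.05 to 1.09 in DTR+ libraries lower DTR+ levels relative to DTR- levels. The sizes of these falls therefore depend on that scaling too. Of upstream genes, 2 of 18 tested genes rose and 1 fell: the inhibitory G protein Gnai2 (0.59) and the nicotinic acid receptor Hcar2 (0.70) rose and the prostaglandin receptor Ptger3 (-1.23) fell.

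In the D3 set, Plin4 was the sole member to pass in BAT, beside 3.52% of the 11666 genes tested (2.24% higher and 1.29% lower). It read 201, 289 and 224 CPM in DTR- and 296, 344 and 384 CPM in DTR+ mice, with no overlap and a log2 fold change of 0.55 ± 0.14 (SE, adjusted p = 0.049). This call sat at the threshold and ended without any library other than DTR- replicate 2 (adjusted p up to 0.19), with RLE factors (0.056) and with all 16 groups in 1 fit (0.35). Lipe read 2376, 2106 and 1697 CPM and 1539.7, 1383 and 1668 CPM, at -0.40 ± 0.12 (SE, adjusted p = 0.091). Cidec was at 0.51 ± 0.15 (SE, adjusted p = 0.085), Mgll at -0.38 ± 0.16 (SE, adjusted p = 0.24) and Plin2 at -0.89 ± 0.32 (SE, adjusted p = 0.24). Lipe, Mgll, Plin1 and Plin2 also had no overlap, each lower in DTR+ mice. The share of all genes tested that lacked overlap was not counted. Without DTR- replicate 3, Lipe passed (-0.52), and without DTR- replicate 2, Cidec passed (0.67). The members' median was -0.10 on the log2 scale against 0.02 for all genes. Macrophage markers summed to 379 to 456 CPM in DTR+ and 168 to 299.9 CPM in DTR- mice, with 1 of the 9 tested higher. Brown adipocyte markers summed to 3828 to 6785 and 8347 to 12337 CPM without overlap, and none of the 3 was called. The part of either list was not tested. Of the pathway genes, Lipa fell by 0.90 on the log2 scale and no other passed.

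The effects of D3 and D4 in BAT were compared directly by an interaction term in edgeR. None of the 10 members and 0% of the 12757 genes tested passed. None of the members, and 732 genes in all, had an unadjusted p under 0.05, and DESeq2 called 4 genes and no member. The difference between sets, D4 minus D3, was -0.23 ± 0.21 (SE) for Mgll, 0.03 ± 0.15 for Lipe and -0.10 ± 0.18 for Plin4 on the log2 scale, which leaves room for differences of either sign.

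Subcutaneous fat gave no member call. In D4 SAT, edgeR called 0 of 10 members beside 0.314% of the 12728 genes tested (0.299% higher and 0.0157% lower), none had an unadjusted p under 0.05, and DESeq2 called none. The D3 SAT comparison also gave 0 of 10, beside 0% of 12596 genes, with no member and 629 genes at an unadjusted p under 0.05. DESeq2 called 19 genes there and no member. Every member's groups overlapped in both sets, and the share of all genes tested that overlapped was not counted. Mgll was at -0.09 ± 0.11 in D4 and -0.01 ± 0.13 in D3, Lipe at 0.02 ± 0.12 and 0.06 ± 0.13, and Plin4 at -0.12 ± 0.13 and 0.02 ± 0.15 on the log2 scale. The members' medians were 0.01 in D4 and 0.08 in D3, against 0.00 and 0.00 for all genes.

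**Figure D4:**
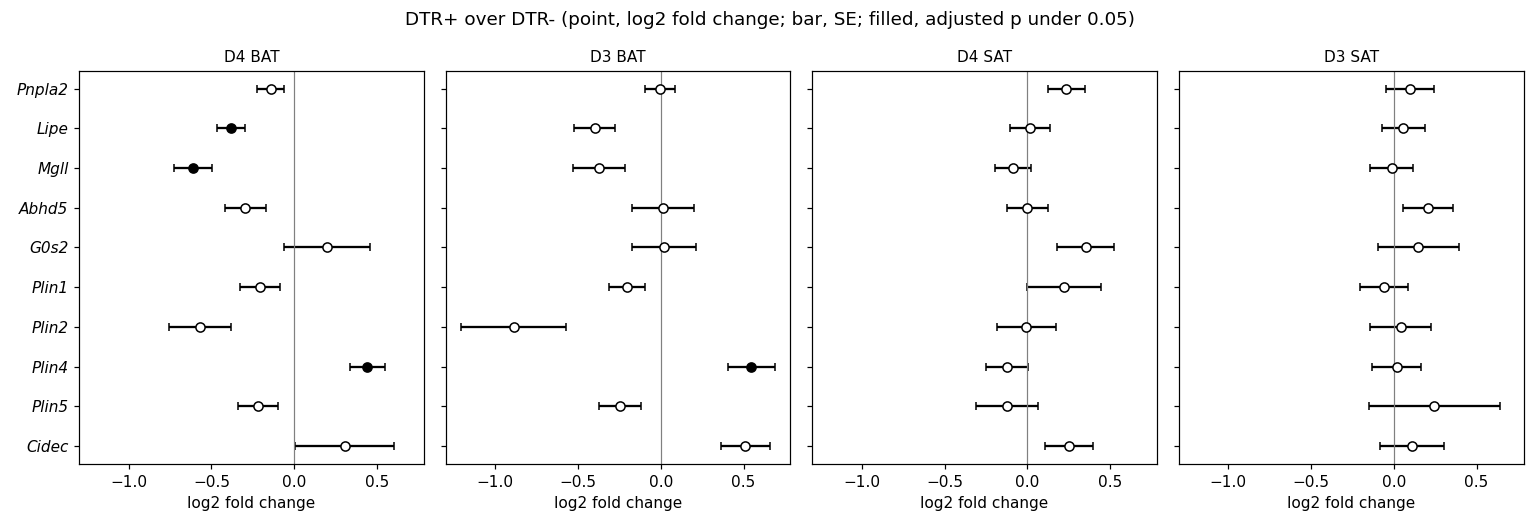
Log2 fold changes of DTR+ over DTR- mice (horizontal axes) for the 10 genes in D4 BAT, D3 BAT, D4 SAT and D3 SAT; points are estimates, bars are SE and filled points passed an adjusted p of 0.05. The filled points are Lipe, Mgll and Plin4 in D4 BAT and Plin4 in D3 BAT.

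Whether the effect differed between depots was tested by an interaction term. In D4, edgeR called 0 of 10 members beside 4.11% of the 13502 genes tested (3.06% higher and 1.05% lower). DESeq2 called 3 members, Pnpla2, Lipe and Mgll, beside 982 genes in all. Each of the 3 had a lower DTR+ minus DTR- difference in BAT than in SAT. In D4 BAT the TMM factors lay apart, at 0.82 to 0.89 in DTR- and 1.05 to 1.09 in DTR+ libraries. In D4 SAT they overlapped, at 1.12 to 1.21 and 1.12 to 1.23. The sizes of the D4 interaction terms therefore depend on that scaling. In D3, 0 of 10 passed beside 0.0675% of the 13325 genes tested (0.06% higher and 0.0075% lower), and DESeq2 called no member. The BAT effect minus the SAT effect was -0.56 ± 0.16 for Mgll (adjusted p = 0.058), -0.43 ± 0.15 for Lipe (adjusted p = 0.1) and 0.53 ± 0.17 for Plin4 (adjusted p = 0.08) in D4. So edgeR did not show the effect on any member to differ between the depots. Without D4 SAT DTR+ replicate 1, Plin4 passed at 0.64 (adjusted p = 0.05). With both SAT libraries that stand apart left out, Lipe passed at -0.50, and no member passed in the D4 SAT comparison itself.

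PC61 binds CD25, which Treg cells carry, and was given without toxin. Plin2 fell, and no other member passed: 1 of 10, beside 0.651% of the 11513 genes tested (0.165% higher and 0.486% lower). It read 2445, 1992 and 2136 CPM with the isotype antibody and 985, 1344 and 1048 CPM with PC61, a log2 fold change of -0.92 ± 0.13 (SE, adjusted p = 0.003), with every PC61 library below every isotype library. The call ended without PC61 replicate 1 (adjusted p = 0.065) but not without replicate 2, which had the highest muscle sum (log2 fold change -1.07, adjusted p = 0.002). It also ended with all 16 groups in 1 fit (0.12). Lipe also lay without overlap, at 1627, 1557 and 1631 CPM and 1339.7, 1341 and 1416 CPM, with a log2 fold change of -0.20 ± 0.09 (SE, adjusted p = 0.48). Mgll was at -0.31 ± 0.15, G0s2 at -0.50 ± 0.31 and Plin4 at -0.05 ± 0.18. The members' median was -0.16 against 0.02 for all genes. Muscle markers summed to 202, 6762 and 571 CPM in the PC61 libraries and 1559, 3.88 and 10.4 CPM in the isotype libraries, and macrophage markers to 149 to 167 and 92.5 to 133 CPM, with none of either list called. Other lists also separated the groups without overlap. With PC61, brown adipocyte markers summed to 4546 to 6195 CPM against 7131 to 15146 CPM with isotype, adipocyte markers to 4505 to 5319 CPM against 3185 to 4271 CPM and red cell markers to 787 to 988 CPM against 517 to 709 CPM, with none called. Fibroblast markers summed to 706 to 907 CPM against 373 to 539.6 CPM, with 2 of 4 higher. The part of these lists in the Plin2 difference was not tested. Of the pathway genes, Hcar2 rose by 1.78 and Npr3 fell by 1.31 on the log2 scale, and no droplet protein or hydrolase passed.

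Blocking interferon gamma in DTR+ mice gave no member call. By edgeR 0 of 10 passed beside 0.541% of the 12017 genes tested (0.0333% higher and 0.508% lower), none had an unadjusted p under 0.05, and DESeq2 called none. All 10 members had overlapping groups, and the share of all genes tested that overlapped was not counted. Lipe read 905, 939.6 and 1077 CPM with the isotype antibody and 925, 1048 and 1214 CPM with anti-IFNg, at 0.10 ± 0.11, and Mgll was at -0.09 ± 0.10. Plin2 was at 0.23 ± 0.14 and Plin4 at 0.10 ± 0.29 on the log2 scale. The members' median was 0.10 against 0.01 for all genes.

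Within each library, the regulators were also set against the lipase they act on, as a description with no test. The ratio of Abhd5 to Pnpla2 counts was 0.103 ± 0.026 (SD, n = 3) with PBS, 0.164 ± 0.034 with CL in DTR- mice, 0.249 ± 0.068 with CL in DTR+ mice and 0.212 ± 0.034 at 4 degrees. In D4 BAT it was 0.0386 ± 0.0073 in DTR- and 0.0347 ± 0.0049 in DTR+ mice, and in D4 SAT 0.0956 ± 0.0064 and 0.0821 ± 0.016. So the co-activator stood highest relative to the lipase in the groups with CL or cold. Both genes enter the ratio. At 4 degrees mean Abhd5 was 266 CPM (248 with PBS) and mean Pnpla2 1273 CPM (2430 with PBS). With CL, DTR+ mice had mean Abhd5 of 373 CPM (396 in DTR-) and mean Pnpla2 of 1563 CPM (2433 in DTR-). The ratio also differed between sets without a stimulus, as in the PBS and D4 DTR- BAT groups.

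The ratio of G0s2 to Pnpla2 counts was 0.184, 0.229 and 0.584 in the PBS libraries, 0.093, 0.138 and 0.14 in DTR- mice with CL and 0.203, 0.0939 and 0.0929 in DTR+ mice with CL. At 4 degrees it was 0.807, 0.442 and 0.258, so the cold libraries differed widely among themselves. Gene lengths are the same in every library, so these ratios can be set side by side between samples, but they are not ratios of transcript numbers.

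**Figure D5:**
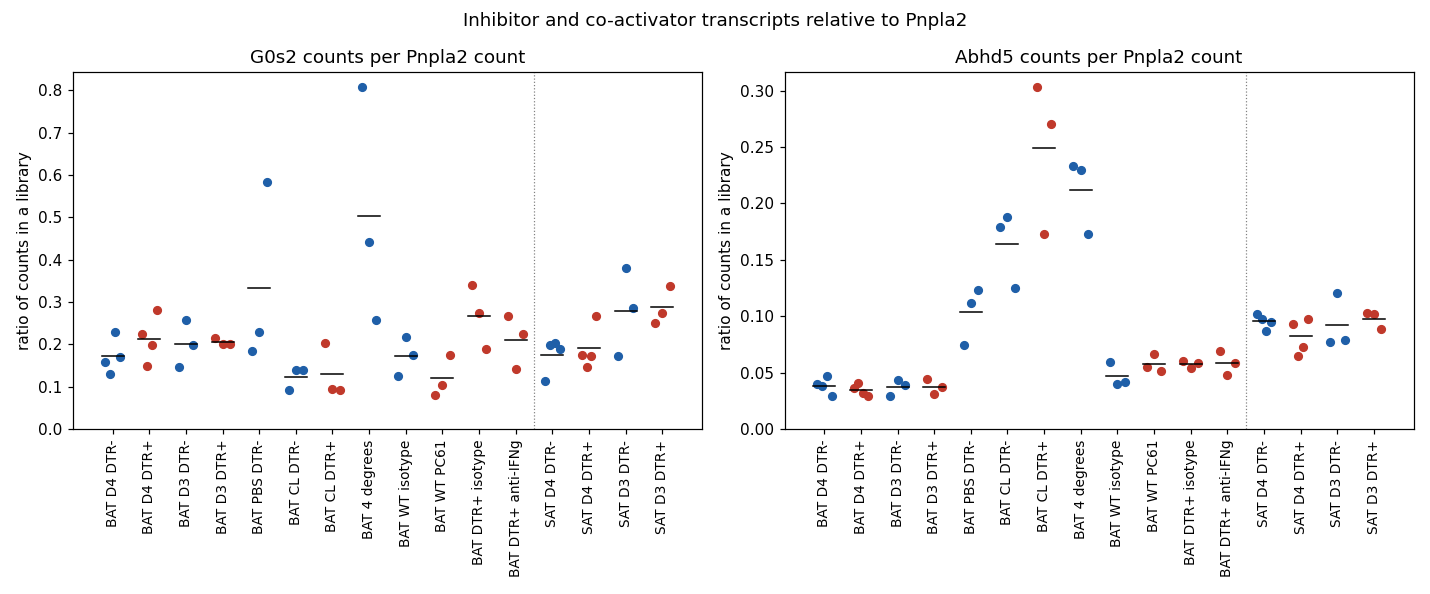
Counts of G0s2 (left) and Abhd5 (right) per count of Pnpla2 in each of 52 libraries (vertical axes, from 0), by group; points are libraries (colours as in the plot of levels), black lines are group means and a dotted line parts BAT from SAT. Abhd5 per Pnpla2 is highest in DTR+ mice with CL, at 0.173 to 0.303, and at 4 degrees, at 0.173 to 0.233.

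Members differed in how far they moved across the 12 BAT groups. The highest group mean over the lowest was 7.69-fold for Plin4, 8.2-fold for Plin2 and 5.58-fold for Plin1, and 1.45-fold for Plin5, the steadiest of the perilipins in BAT. For Pnpla2 it was 3.18-fold, for Lipe 3.26-fold and for Mgll 3.33-fold. Plin4 and Plin5 lie side by side on the minus strand of chromosome 17, 1797 bases apart, and their depot differences had opposite signs.

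The genes whose group means followed each member most closely were sought over the 12 BAT groups among 5758 genes with a mean of at least 20 CPM. Pearson's r of log2 CPM, given as a description, was 0.98 between Plin2 and the mitochondrial cysteinyl-tRNA synthetase Cars2, 0.97 between Plin4 and Arnt, 0.97 between Abhd5 and the kinase Pim1 and 0.95 between Plin1 and Tob1. It was 0.96 between Pnpla2 and Mthfsd, 0.96 between Lipe and Trappc9, 0.96 between Mgll and Sfxn5, 0.96 between G0s2 and Stx4a, and 0.94 between Cidec and Nip7. Plin5 had the lowest best match, Mrpl55 at 0.88. Each r is the highest of 5758 values over only 12 group means, so a high r here does not show a link between the genes. These groups share strain background and library method, and no p is given.

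Gene models of GENCODE M21 (mm10) place parts of 3 members opposite antisense genes. Lipe (chromosome 7, 25379527 to 25398710, minus strand) shares 918 exon bases with 4732471J01Rik, Mgll shares 167 with Gm26588, and Abhd5 (chromosome 9, 122351608 to 122381524, plus strand) shares 950 with A730085K08Rik. Plin4 shares 17 exon bases with the protein-coding gene Hdgfl2 on the opposite strand. The shared stretches make up 15.6% of the merged exon bases of Lipe and 15.95% of those of Abhd5. The strand setting of the counting is not given in the sources used here. How reads from these stretches were assigned is therefore not known, and their bearing on the levels per kb was not tested.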

How the data were processed

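Whole-fat RNA (2 ng) went through Smart-seq2 from an oligo(dT) primer and then Nextera XT, per the labels' protocols. The deposited values are read counts per gene. The submitters' processing notes name STAR 2.7.3a, featureCounts and mm10. Which annotation and strand setting the authors counted with, and how multimapping reads were treated, is not given in the sources used here.

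Per comparison, low counts were removed by filterByExpr, TMM factors were computed and genes were tested by edgeR 4.0.16 (R 4.3.3) with its robust quasi-likelihood F test. A single fit served the 3 groups of the CL set, and another the 4 groups of an interaction; elsewhere only the 2 groups compared entered. Benjamini-Hochberg adjustment ran over all genes tested (threshold 0.05). Standard errors were taken as |log2 fold change| divided by the root of the F statistic. Levels are CPM with TMM factors over 52 libraries, and levels per kb use the merged exons of GENCODE M21. Promoter windows come from RefSeq; all 10 members were matched.

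All 10 members are named in every comparison, and of each pathway list up to 4 called genes by smallest p with at least 5 CPM in the higher group, of which the text gives a part; a gene of these lists is not reported here by name. The members and lists were chosen with earlier results of these data known. Replicate pairs were checked for near copies, and none agreed within counting noise. The procedure was tested on simulated counts. Alternatives were DESeq2 1.42.0, RLE factors, no filter, a replicate block, all 16 groups in 1 fit, other controls for the cold group and each library left out in turn. The 8 sorted Treg libraries entered no comparison.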

Additional observations from a re-analysis of the deposited data

Results flagged for a closer look

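A single library lay far from the rest of its group in 2 of the 40 tests made, on 10 genes in the 4 groups of 4 libraries; chance flags about 1 in 20 groups, which is as many as were found. G0s2 read 433, 418, 437 and 637 CPM in D4 SAT DTR+ replicates 1 to 4, and replicate 4, at 637 CPM, stood apart. Cidec read 1989.9, 1006, 1008 and 1072 CPM in D4 BAT DTR- replicates 1 to 4, and replicate 1 stood apart. Without that library the DTR+ over DTR- difference of Cidec in D4 BAT was 0.57 on the log2 scale (adjusted p = 0.07), in place of 0.31 (adjusted p = 0.59).

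Plin2 was also seen in the sorted Treg cells, which no comparison used. It read 81.9 and 80.2 CPM in Treg cells from BAT and 109.8, 205 and 191 CPM in those from SAT, so that the lowest fat library, at 80.2 CPM, lay above the highest of spleen Treg cells, which read 33.6, 32.0 and 26.5 CPM.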

How the results depend on the processing

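No member's log2 fold change that passed the threshold reversed under any alternative. The number of members called in the D4 depot interaction (0) was 3 with DESeq2, 2 with no filter and 1 with both SAT libraries that stand apart left out. In D3 BAT (1) it was 2 with DESeq2, 0 with RLE factors, 4 with no filter and 0 in a fit of all 16 groups. For DTR+ against DTR- under CL (2) it was 4 with DESeq2, 5 with no filter and 4 in the fit of all 16 groups, and for PC61 (1) it was 0 in that fit. Leaving out each library in turn gave 3 to 5 members in D4 BAT, 0 to 1 in the D4 depot interaction, 0 to 2 in D3 BAT, 4 to 5 for CL, 1 to 4 for DTR+ under CL, 0 to 1 for PC61, 2 to 5 for cold against PBS and 7 to 9 for cold against CL, with no change elsewhere. The cause of these changes was not tested.

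Whether libraries with the same replicate number came from the same mouse is unknown, and the main tests took them as unpaired. In no comparison did all same-numbered pairs correlate above 0.1 in their deviations (range over pairs -0.32 to 0.24). That cannot exclude pairing. Between BAT and SAT of DTR- mice, pairs correlated at 0.04 to 0.18 in D4 and at -0.17 to -0.03 in D3. With that number as a block, 0 members were called in D3 BAT, 3 in cold against PBS (5 without the block), 4 in D4 BAT (3), 8 in cold against CL (9) and 7 in D3 BAT against SAT (6), and the count was unchanged in the other 9 comparisons. No paired analysis was possible because the 2 antibody groups share fewer than 2 numbers in the anti-IFNg comparison.

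Over all genes tested, leaving out each library in turn gave 23 to 52 calls in D4 SAT, 309 to 679 in the D4 depot interaction, 118 to 391 in D3 BAT, 0 to 10 in D3 SAT, 4 to 63 in the D3 depot interaction, 0 to 11 for D4 minus D3, 310 to 1354 for DTR+ under CL, 11 to 100 for PC61, 40 to 61 for anti-IFNg and 499 to 1046 for cold against PBS. Counts over all genes tested also moved by more than 1.5 times in several settings. DESeq2 called 93 in D4 SAT (40), 982 in the D4 depot interaction (555), 19 in D3 SAT (0), 142 in the D3 depot interaction (9), 4 for D4 minus D3 (0), 1581 for DTR+ under CL (930), 231 for PC61 (75) and 1603 for cold against PBS (1068). With no filter these were 155, 887, 72, 273, 45, 1552, 347 and 1744, with 788 in D3 BAT (411) and 172 for anti-IFNg (65). In the fit of all 16 groups they were 2 in D4 SAT, 218 in D3 BAT, 2 in the D3 depot interaction, 5817 for CL (3390), 3232 for DTR+ under CL, 3 for PC61, 0 for anti-IFNg, 2641 for cold against PBS and 6029 for cold against CL (3934). The block gave 11 in D3 SAT, 5 in the D3 depot interaction and 658 for cold against PBS. The D3 and D4 controls gave 2724 and 3864 for cold, and D4 SAT without its 2 libraries that stand apart gave 71, a setting chosen after seeing the data.

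Every member had at least 144 counts in each whole-fat library, and 3 or 4 libraries a group limit the precision.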

Other observations

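Beyond Plin2, the sorted Treg libraries held several members at low levels. Pnpla2 read 85.2 and 60.7 CPM in Treg cells from BAT, 66.8, 49.0 and 54.0 CPM in those from SAT and 57.9, 62.7 and 69.9 CPM in those from spleen. Abhd5, the co-activator of Pnpla2, read 17.2 and 18.4 CPM, 20.4, 22.1 and 19.1 CPM and 15.9, 21.3 and 17.6 CPM in the same order, and Lipe 18.1 and 12.7 CPM, 24.5, 15.8 and 21.5 CPM and 22.0, 35.5 and 27.7 CPM. The adipocyte droplet genes were near 0 there: Plin1 had 0 to 4 counts in a library and Cidec 0 to 3. These are levels within Treg libraries, as a share of the library total, and no test was made.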
